A study of Homo sapiens with 72 samples.

Results

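The nuclear genes of oxidative phosphorylation were followed across 72 wells of U2OS cells, a human osteosarcoma line. Members were the protein-coding genes outside the mitochondrial chromosome whose symbol marks a subunit of a respiratory complex: NDUFA, NDUFB, NDUFC, NDUFS or NDUFV with a number, SDHA to SDHD, UQCR, COX4 to COX8, and ATP5F1, ATP5M or ATP5P. They were matched by Ensembl identifier and numbered 88 of 60371 genes. Complex I had 37 members, complex II 4, complex III 9, complex IV 19 and complex V 19, with NDUFA4 and NDUFA4L2 counted with complex IV. DMSO was given to 18 of the wells. The remaining 54 were split among 6 compounds, each given at 3 doses (100, 1000 and 10000 nM) in 3 wells a dose, and cells were collected after 12 h. Doses are those of the sample labels. The methods text of the study prints a lower middle dose, while its results text gives that of the labels for triptolide and homoharringtonine. The compounds were triptolide (a transcription inhibitor), homoharringtonine (a translation inhibitor), pyrazolanthrone, nilotinib, miglitol and MK-2206. All wells held the same cell line, grown in 24-well plates, and libraries were made from poly(A) RNA with a stranded mRNA kit. Nothing in the labels says that wells came from separate cultures, so p-values measure the spread between wells, which may be technical.

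Oxidative phosphorylation passes electrons from NADH and succinate through complexes I to IV and uses the resulting proton gradient to make ATP at complex V. Complex II is built from nuclear genes alone, whereas each of the other complexes joins nuclear subunits with subunits whose mRNAs are made inside mitochondria. Nuclear mRNAs are made by RNA polymerase II. The mRNAs of the 13 mitochondrial protein-coding genes, called the 13 mitochondrial mRNAs below, are made by a separate polymerase, POLRMT. It is itself nuclear encoded. In growing cells both sets are expressed at high levels.

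The depth per well ran from 70767 to 68296309 counts with a median of 38.4 mil, and 3 libraries held under 10 mil: triptolide 100 nM replicate 2 (the 70767 counts), DMSO replicate 10 (460014 counts) and triptolide 1000 nM replicate 1 (9628355 counts). In triptolide 100 nM replicate 2 a member at 12 normalized CPM (counts scaled to the size of the library) rested on about 1 read. DMSO replicate 10 gave the lowest DMSO value of UQCRQ, NDUFB2, NDUFV3 and NDUFS1 and the highest of NDUFV1. DMSO ranges below, and counts of members with wells outside them, include this library. In DMSO wells VIM averaged 1842 TPM (transcript counts scaled to length and library), SPARC 2144 TPM and COL1A1 456 TPM, whereas COL1A2 stood at 0.089 TPM, RUNX2 at 3.9 TPM and ALPL at 4.1 TPM. Among markers of other cell types, PTPRC, CD3E, ALB, CDH5 and PECAM1 were at or below 0.19 TPM and EPCAM was at 2.4 TPM, while the keratins KRT8 and KRT18 reached 259 TPM and 367 TPM. No spike-in was used, so every value is a share of its library, and fewer cells and less RNA per cell cannot be told apart.

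RefSeq promoter windows on GRCh38.p14, from 250 bases before to 50 bases after the start, were available for 69 of the 88 members and gave 82 windows, beside 35116 windows of all genes. The core of nuclear respiratory factor 1 (NRF1), GCGCANGCGC, was found on either strand in 20.7% of member windows and 5.78% of all windows. An ETS core of the kind bound by GABPA, CCGGAAG, was found in 26.8% against 10.3%, and a YY1 core, AAGATGG, in 23.2% against 5.84%. The CCAAT box was about as frequent in members (34.1%) as in all windows (34.6%), and the TATA box, TATAAA, was found in 8.54% against 11.5%. A window was counted as holding a motif whether it held 1 match or several, and these matches are a description of letters. The 250 bases before the start are printed for the 3 members other than readthrough genes that fell with triptolide at 10000 nM (SDHA, NDUFV3 and UQCRFS1) and for 2 of those that rose most (UQCRQ and NDUFB2). Each is given 5′ to 3′ on the gene's own strand, in lower case, with NRF1, ETS and YY1 cores in capitals.
SDHA: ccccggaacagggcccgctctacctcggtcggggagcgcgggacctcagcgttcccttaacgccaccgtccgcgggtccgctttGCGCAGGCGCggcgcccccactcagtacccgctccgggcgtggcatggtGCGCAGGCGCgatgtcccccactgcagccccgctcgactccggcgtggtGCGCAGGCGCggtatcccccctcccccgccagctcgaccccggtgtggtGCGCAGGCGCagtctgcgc
NDUFV3: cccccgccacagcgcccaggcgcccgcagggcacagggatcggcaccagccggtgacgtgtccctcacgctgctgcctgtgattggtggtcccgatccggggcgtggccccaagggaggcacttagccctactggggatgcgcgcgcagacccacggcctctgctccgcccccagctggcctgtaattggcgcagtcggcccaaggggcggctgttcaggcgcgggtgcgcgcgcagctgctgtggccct
UQCRFS1: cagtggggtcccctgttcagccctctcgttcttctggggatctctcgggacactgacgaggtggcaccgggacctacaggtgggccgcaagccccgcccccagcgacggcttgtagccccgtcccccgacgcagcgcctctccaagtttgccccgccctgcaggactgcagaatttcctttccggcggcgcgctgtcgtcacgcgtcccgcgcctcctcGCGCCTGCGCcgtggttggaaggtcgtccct
UQCRQ: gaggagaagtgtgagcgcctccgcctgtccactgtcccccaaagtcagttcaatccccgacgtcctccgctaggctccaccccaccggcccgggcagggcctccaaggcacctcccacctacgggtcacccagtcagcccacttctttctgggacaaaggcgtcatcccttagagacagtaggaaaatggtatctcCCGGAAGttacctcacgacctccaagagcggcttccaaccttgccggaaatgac
NDUFB2: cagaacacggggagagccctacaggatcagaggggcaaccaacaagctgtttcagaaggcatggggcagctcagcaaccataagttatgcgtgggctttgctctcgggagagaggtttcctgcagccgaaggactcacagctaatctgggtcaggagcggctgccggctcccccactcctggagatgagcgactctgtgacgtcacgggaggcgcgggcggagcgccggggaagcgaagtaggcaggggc

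The SDHA window, chr5:218070-218319 on the plus strand, held 4 NRF1 cores and 75.2% GC. The NDUFV3 window, chr21:42893059-42893308 on the plus strand, held 2 CCAAT boxes, 72.8% GC and none of the 3 cores in these letters. The UQCRFS1 window, chr19:29213152-29213401 on the minus strand, held 1 NRF1 core. The UQCRQ window, chr5:132866392-132866641 on the plus strand, held 1 ETS core. The NDUFB2 window, chr7:140696458-140696707 on the plus strand, held none of the 3 cores. The windows of NDUFV3 and NDUFB2 precede RefSeq starts that lie inside the GENCODE spans of these genes (42879644-42913304 and 140690777-140722790). Other starts of these genes were not searched. In the windows printed, members that rose and members that fell were found with and without the cores.

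In DMSO wells the members were abundant and short. Their median level was 148.5 TPM over the 88 genes, 78 of them reached 10 TPM and 8 stayed under 1 TPM. Summed over members, complex V reached 5830 ± 611 TPM and complex I 5768 ± 362 TPM (SD, n = 18), which overlapped, followed by complex IV at 4548 ± 373 TPM, complex III at 1858.5 ± 167 TPM and complex II at 563 ± 77 TPM. The highest members on the TPM scale were ATP5MF, a subunit of the membrane part of ATP synthase, at 882 ± 105 TPM and COX8A, a small subunit of cytochrome c oxidase, at 836 ± 111 TPM. COX4I1 at 751 ± 85 TPM, COX6A1 at 742 ± 99 TPM, ATP5MC2 at 686 ± 118 TPM, NDUFB9 at 637 ± 92 TPM and ATP5F1B at 581 ± 108 TPM came next. Each neighbour in this order differed by less than its SD.

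Of each tissue-restricted pair, the widely expressed form was the one present. COX4I1 stood at 751 TPM against 0.004 TPM for COX4I2, COX6A1 at 742 TPM against 0.03 TPM for COX6A2, and COX6B1 at 431 TPM against 0.21 TPM for COX6B2. COX7A2 stood at 213 TPM against 0.11 TPM for COX7A1, and NDUFA4 at 175 TPM against 0.18 TPM for NDUFA4L2. COX7B2 and COX8C were listed at 0 on average, beside COX7B at 74 TPM and COX8A at 836 TPM. The 3 genes for the c subunit of ATP synthase, which make the same mature protein, were all present, with ATP5MC2 at 686 TPM, ATP5MC1 at 432 TPM and ATP5MC3 at 280 TPM. UQCRH stood at 435 TPM and its intronless copy UQCRHL at 8.5 TPM; the reads of these near-identical genes were divided by estimation and the UQCRHL values are uncertain.

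A total of 81 members passed the filter on low counts in every comparison with DMSO: 37 of complex I, 4 of complex II, 9 of complex III, 13 of complex IV and 18 of complex V. The 7 that never passed in those comparisons were COX4I2, COX6A2, COX7A1, COX7B2, COX8C, NDUFA4L2 and ATP5MGL. A call below means an adjusted p under 0.05 in edgeR's quasi-likelihood test, adjusted over all genes tested, and log2 fold changes carry their SE.

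Triptolide raised most nuclear members as a share of the library. At 100 nM 58 of 81 members rose (71.6%) and 1 fell, at 1000 nM 73 rose (90.1%) and 4 fell, and at 10000 nM 73 rose (90.1%) and 4 fell. Over all genes tested the raised share was 24.5%, 28.8% and 32.2% and the lowered share 32.3%, 38.6% and 39.7% at the 3 doses. The median log2 fold change of members was 0.74, 0.95 and 1.03, whereas that of all genes was -0.16, -0.21 and -0.17. Rises past a log2 fold change of 1 numbered 20, 35 and 45 members, against 11.4%, 13.9% and 16.2% of all genes. At 10000 nM all 3 wells lay above every DMSO well for 68 members, against 24.7% of all genes, and below every DMSO well for 2 members, against 24.6%. With library sizes alone as the scale the split was 47 raised and 6 lowered, 50 and 6, and 53 and 6. The median of all genes then moved to -0.50, -0.67 and -0.70, and the members' median stood above it by 0.930, 1.166 and 1.205, against 0.903, 1.164 and 1.2 with TMM scaling.

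**Figure D1:**
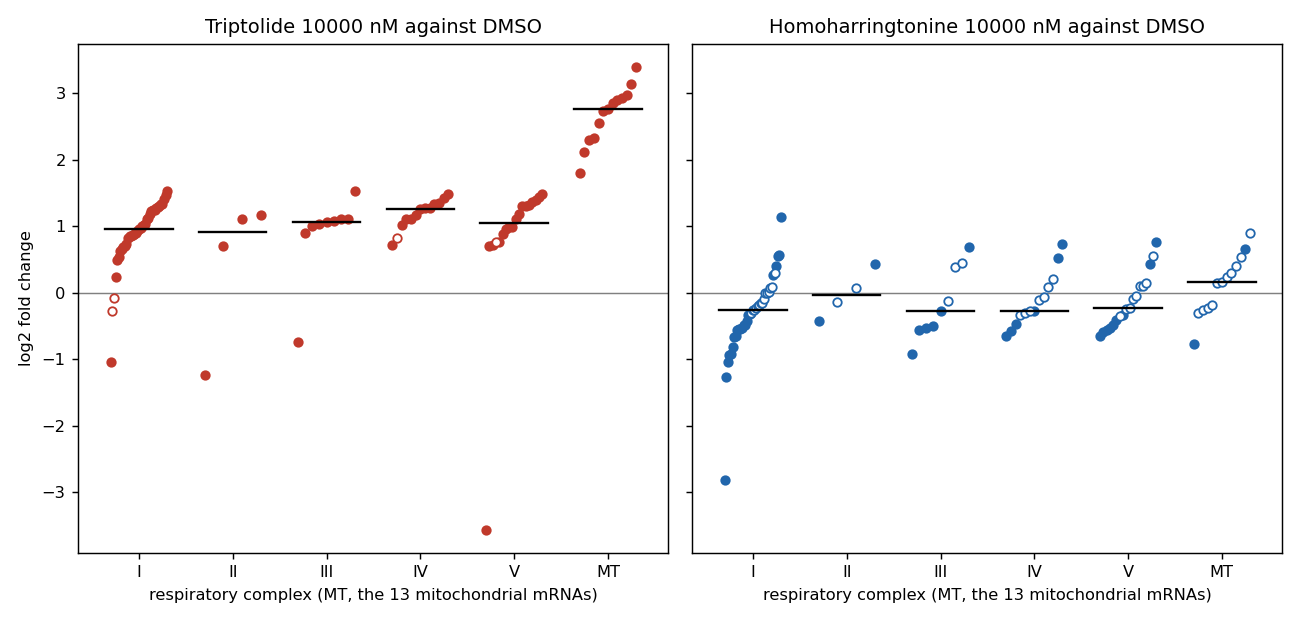
Log2 fold change against DMSO (vertical axis) of each tested member by respiratory complex and of the 13 mitochondrial mRNAs (MT), for triptolide 10000 nM (left) and homoharringtonine 10000 nM (right). Points are genes ordered by value, filled where the adjusted p was under 0.05, and bars are medians; with triptolide the medians of complexes I to V sit between 0.91 and 1.26 and that of the mitochondrial mRNAs at 2.76.

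Each complex moved up at 10000 nM of triptolide. In complex I 34 of 37 members rose and 1 fell (median 0.96), in complex II 3 of 4 rose and 1 fell (0.91), in complex III 8 of 9 rose and 1 fell (1.06), in complex IV 12 of 13 rose (1.26) and in complex V 16 of 18 rose and 1 fell (1.04). At 100 nM the same complexes had 29, 1, 6, 11 and 11 members raised, with medians of 0.82, 0.25, 0.68, 0.97 and 0.63. The 4 members that fell at 10000 nM, each also lowered at 1000 nM, were SDHA, NDUFV3, UQCRFS1 and the readthrough gene ATP5MF-PTCD1 (-3.56). The 4 that were not called were NDUFC2-KCTD14, NDUFV2, COX6B2 and ATP5MJ. The readthrough genes and ATP5MJ are outside the naming rule and are named because the counts are small; a readthrough gene shares its exons with 2 neighbours, so its value is uncertain.

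Complex II, succinate dehydrogenase, parted within itself. SDHA (chr5:218303-257082, plus strand), its flavin-binding catalytic subunit, lay between 115 CPM and 156 CPM in DMSO wells, with a median of 141 CPM. It measured 94.1, 120.5 and 104.5 CPM at 100 nM of triptolide, 52.4, 61.6 and 49.7 CPM at 1000 nM, and 58.8, 58.1 and 66.7 CPM at 10000 nM. At 1000 nM and 10000 nM every treated well was therefore below every DMSO well. The log2 fold changes were -0.45 ± 0.12 (adjusted p = 0.0022), -1.36 ± 0.11 (1.2e-10) and -1.24 ± 0.11 (1.3e-10). SDHA has several pseudogenes, with which reads can be shared.

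The other 3 subunits rose. SDHB, the iron-sulfur subunit, went from a range of 29.8 to 81.5 CPM (median 65.2) in DMSO wells to 145.3, 151.4 and 144.1 CPM at 10000 nM of triptolide, a log2 fold change of 1.11 ± 0.12 (adjusted p = 6.3e-09). The membrane anchor SDHC went from a range of 57.3 to 128.6 CPM (median 95.0) to 218.0, 236.9 and 212.4 CPM (1.17 ± 0.16, adjusted p = 5e-07). The other anchor, SDHD, went from a range of 31.5 to 98.7 CPM (median 73.3) to 123.7, 123.8 and 116.8 CPM (0.70 ± 0.14, adjusted p = 6e-05). For all 3 genes the treated wells lay above every DMSO well, the reverse of SDHA.

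The nuclear core subunits of complex I carry its flavin and iron-sulfur clusters. NDUFV1, which binds NADH and the flavin, went from a range of 91.5 to 138.4 CPM (median 111.6) in DMSO wells to 282.7, 288.4 and 304.5 CPM at 10000 nM of triptolide, a log2 fold change of 1.31 ± 0.10 (adjusted p = 3.4e-11). NDUFS8 rose by 1.11, NDUFS7 by 0.89, NDUFS1 by 0.81 and NDUFS3 by 0.62 on the log2 scale. NDUFV2, an iron-sulfur partner of NDUFV1, was not called (-0.08, adjusted p = 0.68).

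The accessory subunits of complex I included both extremes. NDUFB2 (chr7:140690777-140722790, plus strand), in the membrane arm, had 22.8 to 49.4 CPM (median 43.0) in DMSO wells. It had 94.9, 108.5 and 76.8 CPM at 100 nM, 87.6, 90.5 and 104.9 CPM at 1000 nM, and 123.1, 129.1 and 123.4 CPM at 10000 nM (1.53 ± 0.11, adjusted p = 4.4e-12). All 9 treated wells lay above every DMSO well. NDUFV3 (chr21:42879644-42913304, plus strand), a small subunit beside the NADH-binding module, had 15.77 to 35.031 CPM (median 30.5) in DMSO wells and turned with dose. It measured 43.9, 12.1 and 44.9 CPM at 100 nM of triptolide (0.52 ± 0.14, adjusted p = 0.0031), 13.3, 16.049 and 13.7 CPM at 1000 nM (-1.07 ± 0.14, adjusted p = 1.8e-07), and 14.8, 14.9 and 15.4 CPM at 10000 nM (-1.04 ± 0.12, adjusted p = 5.1e-08). The value of 12.1 CPM comes from the library of 70767 counts, and the other 2 wells at 100 nM were above every DMSO well. At 10000 nM all 3 wells were below the lowest DMSO well.

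In complex III, UQCRQ (chr5:132866630-132868847, plus strand), a small structural subunit, had 57.8 to 178.7 CPM (median 139.6) in DMSO wells. It had 339.7, 72.3 and 157.8 CPM at 100 nM of triptolide, 226.5, 234.3 and 354.9 CPM at 1000 nM and 415.2, 446.7 and 383.2 CPM at 10000 nM, so the wells at the upper doses were all above DMSO. The log2 fold change at 10000 nM was 1.53 ± 0.16 (adjusted p = 3.3e-09). UQCRH, the hinge subunit, rose by 1.10 and UQCRHL by 1.08. UQCRFS1 (chr19:29205320-29213151, minus strand), the Rieske iron-sulfur subunit that hands electrons on towards cytochrome c, had 64.8 to 201.8 CPM (median 118.9) in DMSO wells. It had 44.5, 36.2 and 98.5 CPM at 1000 nM (-1.16 ± 0.33, adjusted p = 0.0036) and 92.7, 97.2 and 56.8 CPM at 10000 nM, which overlapped with DMSO. The log2 fold change of -0.74 ± 0.30 at 10000 nM (adjusted p = 0.029) lost its call without triptolide replicate 1 or 3, with DESeq2 and with its size factors.

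In complex IV, COX6C, a small membrane subunit, went from a range of 14.017 to 81.1 CPM (median 63.2) in DMSO wells to 169.1, 170.7 and 175.2 CPM at 10000 nM of triptolide (1.49 ± 0.18, adjusted p = 4.3e-08). NDUFA4, a subunit once placed in complex I, went from a range of 139.9 to 272.3 CPM (median 211.4) to 568.7, 595.5 and 542.9 CPM (1.34 ± 0.11, adjusted p = 4.2e-11). COX8A went from a range of 103.4 to 242.7 CPM (median 193.9) to 449.5, 486.4 and 515.6 CPM, a log2 fold change of 1.33 ± 0.14. In each of these genes the treated wells stood clear of DMSO. COX7B rose by 1.42, COX7A2 by 1.28, COX4I1 by 1.27, COX6B1 by 1.26, COX6A1 by 1.11 and COX7A2L, known for its part in respiratory supercomplexes, by 0.71. The scarce COX6B2 measured 0.82 (adjusted p = 0.094).

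In complex V, the 3 c subunit genes rose unequally with triptolide at 10000 nM: ATP5MC1 by 1.48, ATP5MC2 by 0.88 and ATP5MC3 by 0.70. ATP5MC1 went from a range of 49.1 to 122.3 CPM (median 102.6) in DMSO wells to 275.3, 292.5 and 303.5 CPM, so its 3 wells were all above DMSO. ATP5MF, the most abundant member, went from a range of 74.7 to 155.5 CPM (median 117.3) to 273.6, 292.0 and 334.5 CPM (1.32 ± 0.15, adjusted p = 2.3e-08). ATP5MK, a small accessory subunit, rose by 1.10 ± 0.33 (adjusted p = 0.0047).

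**Figure D2:**
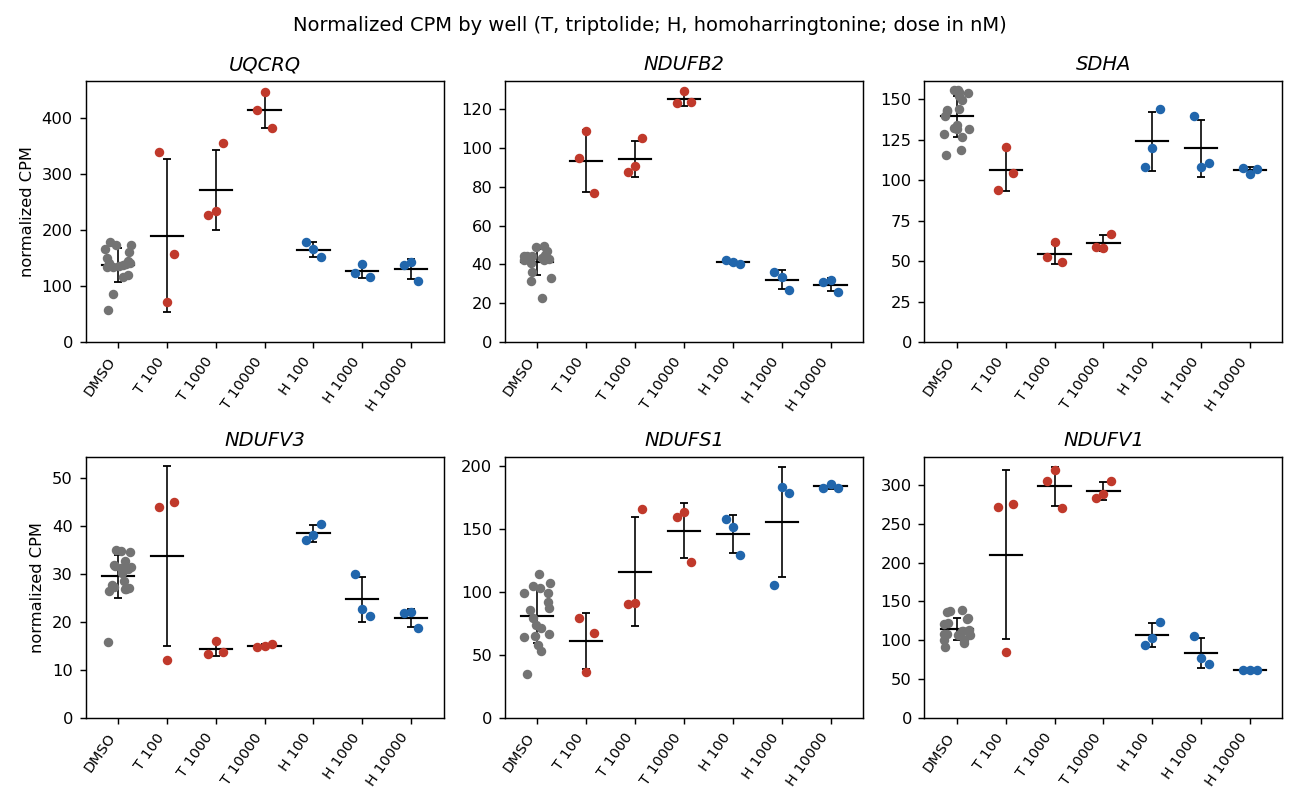
Normalized CPM (vertical axis) of 6 members in 18 DMSO wells (grey) and in the 3 wells of each dose of triptolide (T, red) and homoharringtonine (H, blue). Points are wells, long bars are means and whiskers are SD; UQCRQ and NDUFB2 rise with triptolide, SDHA and NDUFV3 fall at its upper doses, and with homoharringtonine NDUFS1 rises to 182.8 to 186.3 CPM at 10000 nM while NDUFV1, which rises with triptolide, falls to 61.5 to 62.0 CPM.

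The rise with triptolide went with short and abundant transcripts. The 81 tested members had a median transcript length of 766 bases and a median of 163 TPM, against 2195.5 bases and 14.6 TPM for 14369 protein-coding nuclear genes tested. Below 1000 bases, 53 of 56 members rose at 10000 nM of triptolide (94.6%, median 1.10), against 58.2% of protein-coding genes of that length (0.70) and 79.3% of those with at least 50 TPM in DMSO (0.95). From 1000 to 1500 bases, 11 of 11 members rose (median 0.99), against 42.0% (0.21) and 62.5% (0.59). From 1500 bases, 9 of 14 rose and 4 fell (64.3% raised, median 0.82), against 30.0% (-0.37) and 52.3% (0.34). All 4 members that fell were in this longest class. Across the 81 members the Pearson correlation of the log2 fold change with log2 length was -0.45, a description over genes that share their libraries. Length and abundance moved with the result, and their part in it was not tested.

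**Figure D3:**
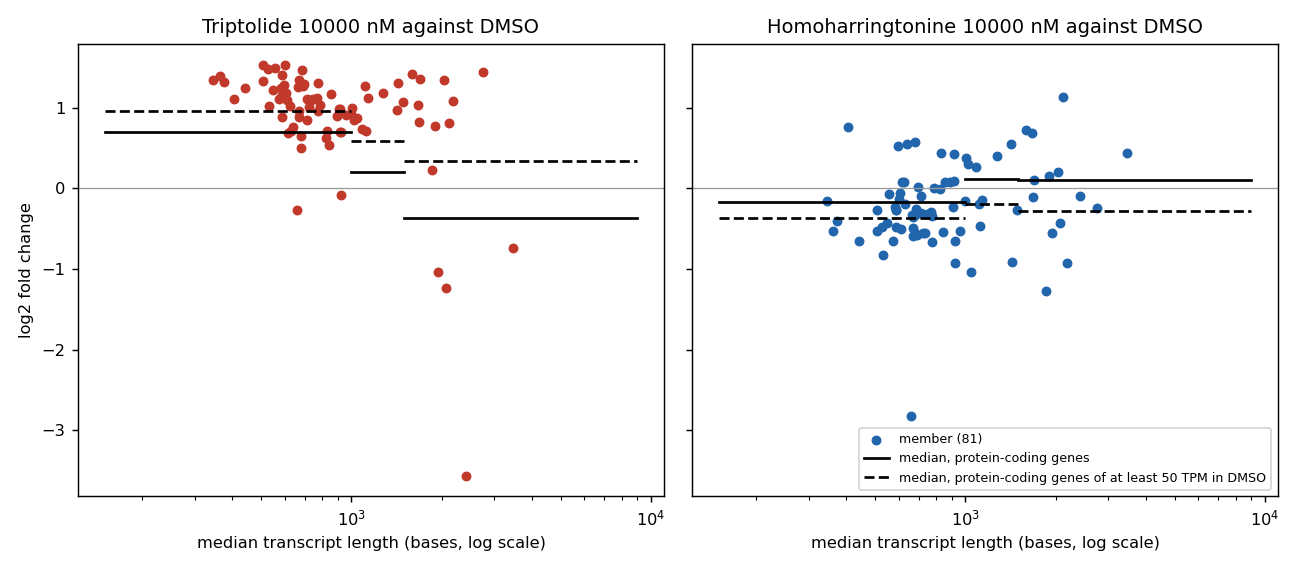
Log2 fold change against DMSO (vertical axis) by median transcript length in bases (horizontal axis, log scale) for the 81 tested members, with triptolide (left) and homoharringtonine (right) at 10000 nM. Solid and dashed lines are the medians, within each length class, of all protein-coding genes and of those with at least 50 TPM in DMSO; with triptolide the members under 1000 bases centre on 1.10, above the lines at 0.70 and 0.95.

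The mitochondrially encoded mRNAs rose more than the nuclear members. With triptolide all 13 rose at each dose, with median log2 fold changes of 1.54, 2.38 and 2.76 at 100 nM, 1000 nM and 10000 nM. At 10000 nM they ranged from 1.80 ± 0.56 for MT-ATP8 to 3.39 ± 0.26 for MT-ND4. The point estimate of the least raised of them was above that of every nuclear member. The SE of MT-ATP8 reached below the largest rises of members, so the order of these is not resolved. MT-ND3, the next lowest, stood at 2.12 ± 0.14. Their share of all counts was 0.138% to 0.367% in DMSO wells, 0.518% to 0.625% at 100 nM of triptolide, 0.768% to 1.09% at 1000 nM and 1.01% to 1.15% at 10000 nM.

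Within each library the nuclear members were summed and divided by the 13 mitochondrial mRNAs, both in TPM, a ratio that needs no scaling between libraries. The mitochondrial mRNAs held 0.138% to 0.367% of counts in DMSO wells, and MT-ATP8 stood at 266 ± 306 TPM. Whether the deposited values recover all mitochondrial reads was not tested. The ratio therefore describes these libraries and may differ from that in the cells. In DMSO wells this ratio was 4.03 ± 1.40 (SD, n = 18), from 1.92 to 7.47. It was 2.65, 2.65 and 1.87 in the wells of triptolide at 100 nM, 1.32, 1.74 and 1.12 at 1000 nM and 1.25, 1.33 and 1.41 at 10000 nM. The lowest dose overlapped with DMSO, and both upper doses lay below every DMSO well. On the log2 scale the mean went from 1.93 ± 0.50 in DMSO to 1.24 ± 0.29, 0.45 ± 0.32 and 0.41 ± 0.09, a fall of 0.69, 1.48 and 1.52. Both sums were higher than in DMSO at the highest dose: nuclear members went from 18568 ± 1144.8 TPM to 24328 ± 368 TPM and mitochondrial mRNAs from 5106 ± 1672 TPM to 18357 ± 1303 TPM. By complex the log2 ratio at 10000 nM differed from DMSO by -1.67 for complex I, -1.79 for complex III and -1.38 for complex IV, each below every DMSO well, and by -1.58 for complex V, which overlapped with DMSO.

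**Figure D4:**
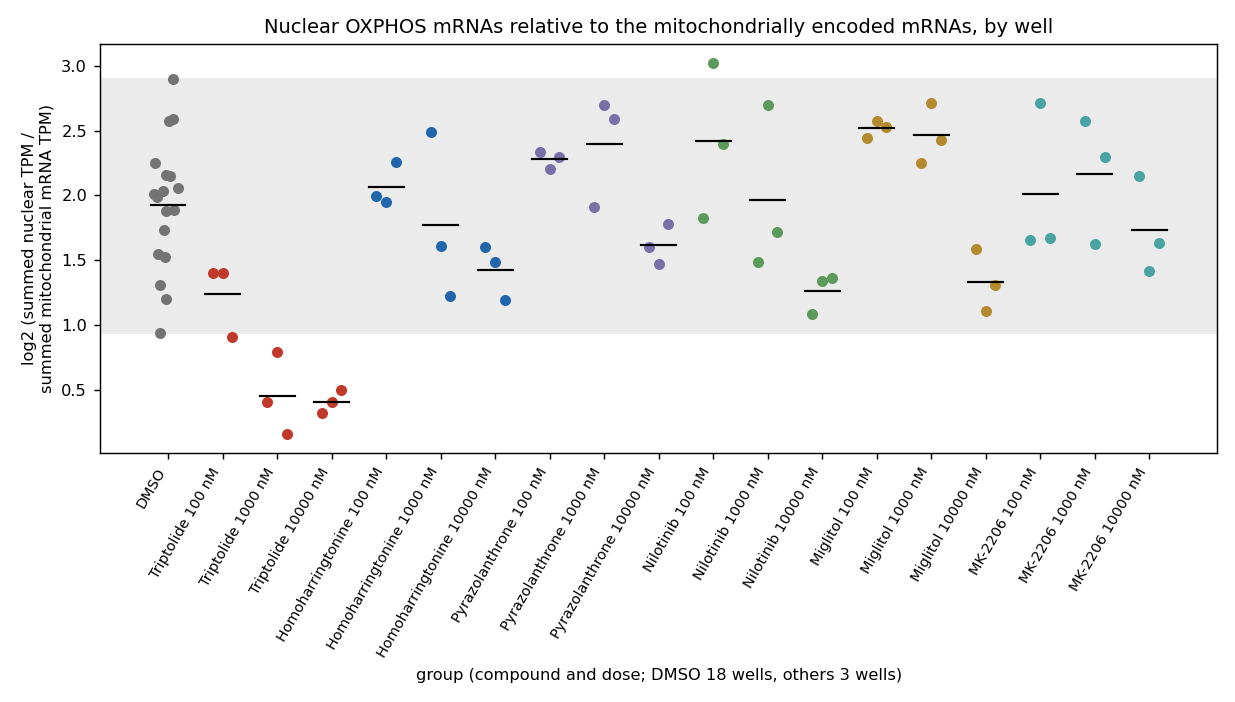
Log2 of the summed TPM of nuclear members over the summed TPM of the 13 mitochondrial mRNAs (vertical axis) in each of the 72 wells, by compound and dose. Points are wells, bars are means and the grey band is the range of the DMSO wells, 0.94 to 2.90; all wells of triptolide at 1000 nM and 10000 nM lie below it, and 1 well of nilotinib at 100 nM lies above it at 3.03.

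A fit with the mitochondrial mRNAs as the library size asked whether each nuclear member changed relative to them. With triptolide 54 of 81 members fell at 100 nM, 80 at 1000 nM and 81 at 10000 nM, with medians of -0.88, -1.52 and -1.73. The count at 100 nM was 30 without triptolide replicate 3. Over all genes tested 80.2%, 95.5% and 98.3% fell, with medians of -1.81, -2.68 and -2.92, so a fall relative to the mitochondrial mRNAs was shared by nearly all genes and members fell by less than the median gene. The count of raised members was 0 at each dose with edgeR, 0 at an unadjusted p under 0.05 and 0 with DESeq2. At 10000 nM the medians were -1.84, -1.86, -1.72, -1.57 and -1.67 for complexes I to V. The named members nearest to the mitochondrial mRNAs were COX6C at -1.24 ± 0.26, UQCRQ at -1.26 ± 0.32 and NDUFB2 at -1.26 ± 0.30, and the farthest were SDHA at -4.04 ± 0.36 and NDUFV3 at -3.83 ± 0.35. The member not called at 1000 nM was COX6B2 (adjusted p = 0.44).

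Homoharringtonine moved fewer members, in both directions. At 100 nM 15 of 81 rose (18.5%) and 2 fell (2.47%), at 1000 nM 9 rose (11.1%) and 12 fell (14.8%), and at 10000 nM 11 rose (13.6%) and 34 fell (42.0%). Leaving out 1 homoharringtonine replicate moved the number lowered at 1000 nM to between 6 (without replicate 3) and 24 (without replicate 1), and the number raised at 10000 nM to between 6 and 7. Over all genes tested 31.1%, 35.0% and 36.7% rose and 32.3%, 33.4% and 37.2% fell at the 3 doses. The share of members raised was below that of all genes at each dose, and the share lowered was near it at 10000 nM alone. The members' median log2 fold change was 0.13, -0.08 and -0.26, against -0.03, -0.01 and -0.05 for all genes. With library sizes alone the split at 100 nM was 5 raised and 16 lowered, with a median of -0.10. At 1000 nM it was 7 and 26, with a median of -0.22, and at 10000 nM 10 and 37. The direction of the members' median at 100 nM therefore depends on the scaling. Its difference from the median of all genes moved little. It was 0.160, -0.061 and -0.204 with TMM scaling and 0.157, -0.064 and -0.206 with library sizes alone. At 10000 nM all 3 wells lay below every DMSO well for 7 members, against 18.9% of all genes, and above every DMSO well for 5, against 28.7%. NDUFV3 lay below every DMSO well but replicate 10, the library of 460014 counts. The GC slope of a library, which says how much its log2 expression rises for a gain of 10 percentage points in transcript GC, was -0.276 to -0.172 in the wells at 10000 nM, below the -0.066 to 0.561 of every DMSO well. With the GC slope as a covariate the split was 34 raised and 11 lowered at 100 nM, 20 and 21 at 1000 nM and 9 and 28 at 10000 nM. At 10000 nM the members' median was then -0.18, against -0.14 for all genes, a difference of -0.040 in place of -0.204. At 100 nM the difference was 0.250 in place of 0.160, and at 1000 nM 0.016 in place of -0.061. At 10000 nM 9 named members turned in sign, among them COX7B, COX7A2, SDHD and ATP5MK, which had risen.

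The core subunits of complex I went in opposite directions with homoharringtonine. NDUFS1 (chr2:206114817-206159509, minus strand), an iron-sulfur core subunit, had 35.044 to 114.0 CPM (median 82.5) in DMSO wells. It had 158.1, 152.1 and 129.4 CPM at 100 nM, 105.3, 183.4 and 178.4 CPM at 1000 nM and 182.8, 186.3 and 183.0 CPM at 10000 nM, with 8 of 9 treated wells above every DMSO well. Its log2 fold changes were 0.85, 0.92 and 1.14 ± 0.18, the last with an adjusted p of 4.8e-06.

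NDUFV2 fell at all 3 doses, by 0.79, 0.97 and 0.93 on the log2 scale, and measured 30.4, 31.3 and 31.4 CPM at 10000 nM against 21.0 to 77.7 CPM in DMSO wells (adjusted p = 3.6e-05). NDUFV1 had 62.0, 61.7 and 61.5 CPM at 10000 nM, all below the lowest DMSO well of 91.5 CPM (-0.92 ± 0.12, adjusted p = 2.5e-07). NDUFS6, an accessory subunit, had 46.1, 48.4 and 41.2 CPM, below the 58.5 to 147.2 CPM of DMSO wells (-1.04 ± 0.19, adjusted p = 3.1e-05). NDUFS8 fell by 0.33 (adjusted p = 0.04), while NDUFS3 (-0.01) and NDUFS7 (0.07) were not called. NDUFB2 and NDUFV3, which parted under triptolide, fell by 0.53 and 0.55 with homoharringtonine at 10000 nM. In all, complex I had 5 members raised and 17 lowered at that dose.

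In complex II, SDHD rose at each dose of homoharringtonine, by 0.52, 0.47 and 0.43 (adjusted p = 0.002, 0.0079 and 0.0082), and SDHA fell at 10000 nM to 107.5, 103.7 and 107.0 CPM, below every DMSO well (-0.43 ± 0.09, adjusted p = 0.00018). Complex III had 1 member raised and 5 lowered, with UQCRH at -0.51 and UQCRHL at -0.93. Complex IV had 2 raised and 4 lowered, the latter including COX6A1 (-0.65), COX4I1 (-0.58) and COX7A2L (-0.47). COX7B measured 104.4, 106.8 and 93.5 CPM against 22.8 to 97.7 CPM in DMSO wells (0.73 ± 0.30, adjusted p = 0.031), and COX7A2 stood at 0.52 ± 0.23 (adjusted p = 0.046). Complex V had 2 raised and 7 lowered, with ATP5MC3 at -0.65, ATP5MC1 at -0.48 and ATP5MF at -0.41. ATP5MK measured 35.6, 33.6 and 38.4 CPM against 8.7 to 41.6 CPM in DMSO wells (0.76 ± 0.34, adjusted p = 0.045). The rises of COX7B, COX7A2 and ATP5MK and the fall of NDUFS8 lost their calls when any 1 homoharringtonine replicate was left out.

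**Figure D5:**
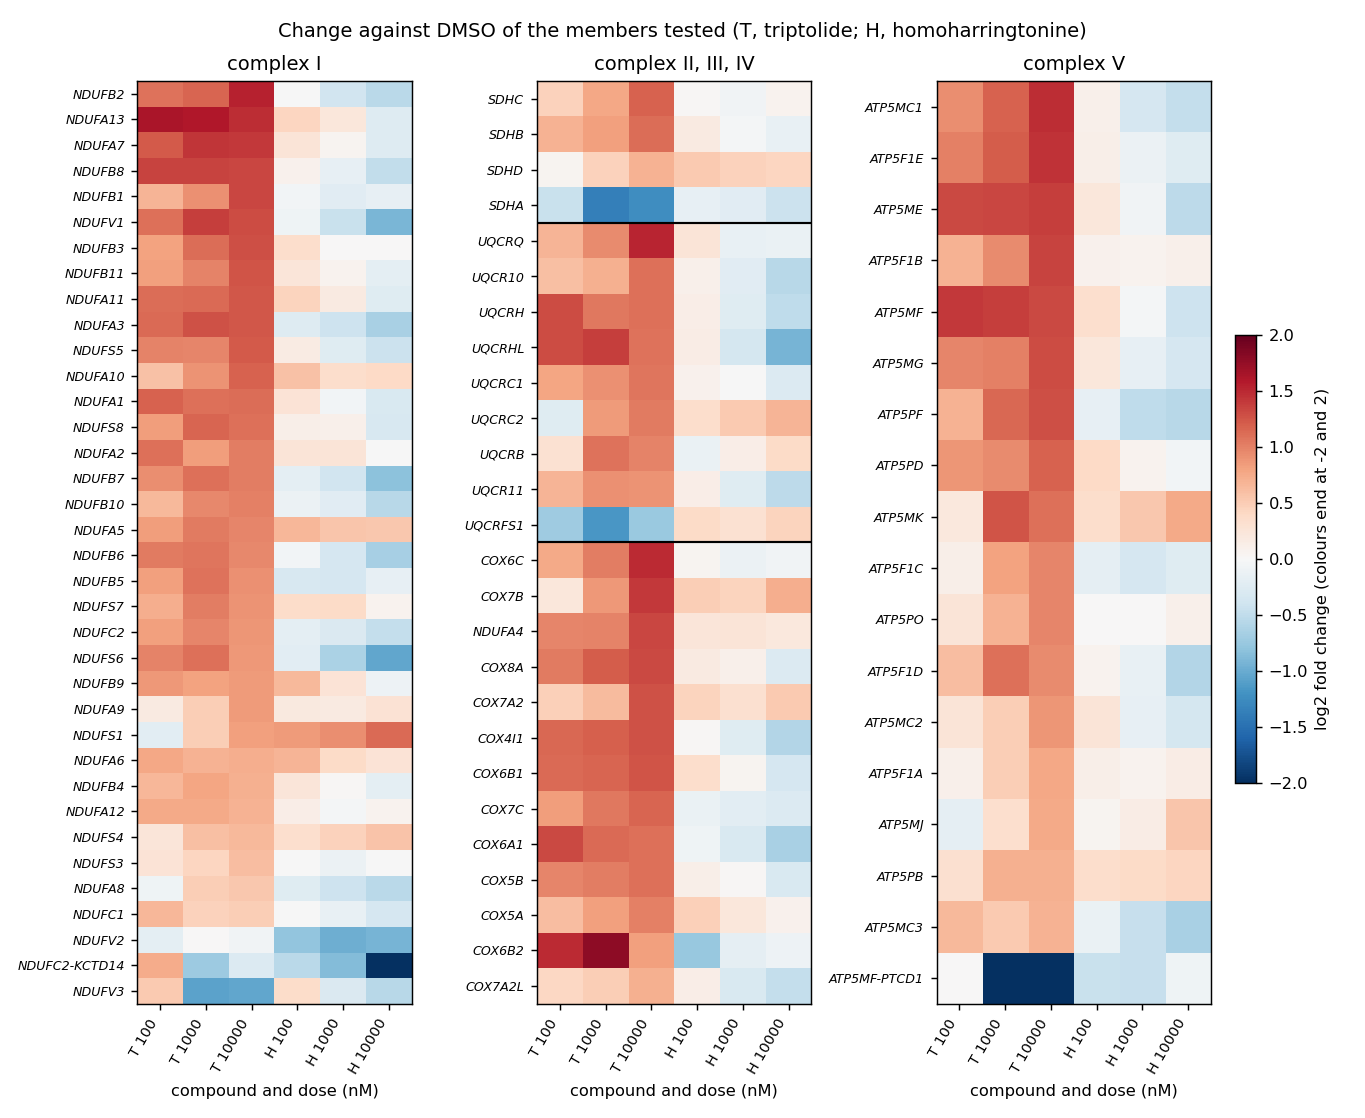
Log2 fold change against DMSO (colour, ending at -2 and 2) of 80 tested members in rows by complex, with triptolide (T) and homoharringtonine (H) at 3 doses in nM in columns, ordered within a complex by the change with triptolide at 10000 nM. Most rows are red under triptolide apart from SDHA, UQCRFS1, NDUFV3 and ATP5MF-PTCD1, and pale or mixed under homoharringtonine, where NDUFS1 is red and NDUFV2 is blue at every dose.

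With homoharringtonine the summed ratio of nuclear to mitochondrial mRNAs overlapped with DMSO at each dose. It was 3.99, 3.86 and 4.79 at 100 nM, 5.62, 3.06 and 2.33 at 1000 nM and 3.04, 2.80 and 2.29 at 10000 nM, all within the DMSO range. The mean log2 ratio differed from DMSO by 0.14, -0.16 and -0.50, and the SD of the DMSO wells was 0.50. Of the 13 mitochondrial mRNAs, MT-ND6, transcribed from the opposite strand to the others, was lower at each dose (-0.78, -0.85 and -0.77, adjusted p = 0.04, 0.029 and 0.037), and MT-CO2 rose at 10000 nM (0.65 ± 0.26, adjusted p = 0.028). Relative to the mitochondrial mRNAs, 4 members rose and 2 fell at 100 nM, 2 rose and 3 fell at 1000 nM, and 2 rose and 29 fell at 10000 nM. The shares of all genes were 23.3% and 27.9%, 28.2% and 28.4%, and 27.4% and 38.4%, and the members' medians were 0.01, -0.18 and -0.58 against -0.12, -0.09 and -0.32. NDUFS1 rose on this scale at every dose, by 0.80, 0.81 and 0.91 ± 0.19 (adjusted p = 1.7e-04 at 10000 nM). The 29 falls at 10000 nM rested on the libraries used: without homoharringtonine replicate 3 the count of calls was 10 and without replicate 2 it was 14. At 1000 nM the count was 16 without replicate 1. With the GC slope as a covariate, added after seeing the data, 37 rose and 3 fell at 100 nM, 28 rose and 6 fell at 1000 nM and 22 rose and 4 fell at 10000 nM, with medians of 0.44, 0.26 and 0.32, so the medians at the upper doses turned in sign. The median of all genes was then 0.185, 0.254 and 0.361 and turned in sign at each dose, so this turn was not particular to the members.

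Direct comparison of triptolide with homoharringtonine, which shares no DMSO wells, gave higher member levels with triptolide. At 100 nM 51 of 80 members tested were higher with triptolide and 3 lower, at 1000 nM 57 of 81 higher and 4 lower, and at 10000 nM 74 of 81 higher and 5 lower. Over all genes 29.7%, 27.9% and 41.4% were higher with triptolide and 35.8%, 38.9% and 47.0% lower. The members' median log2 difference, triptolide minus homoharringtonine, was 0.69, 0.96 and 1.36, against -0.10, -0.31 and -0.17 for all genes. At 10000 nM NDUFV1 differed by 2.31 ± 0.07 (adjusted p = 1.1e-10), NDUFB2 by 2.16 ± 0.10 (adjusted p = 3.3e-09) and ATP5MC1 by 2.05 ± 0.08. Lower with triptolide were UQCRFS1 (-1.10 ± 0.17, adjusted p = 8.3e-05), SDHA (-0.72 ± 0.08, adjusted p = 3.9e-06), NDUFV3 (-0.40 ± 0.10, adjusted p = 0.003), NDUFS1 (-0.24 ± 0.10, adjusted p = 0.049) and ATP5MF-PTCD1 (-3.39). At 1000 nM the count of calls fell from 61 to 35 without replicate 2 of both compounds.

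Dose trends were fitted within each compound over its 9 wells. With triptolide 3 members rose with log10 dose and 3 fell, against 6.95% and 17.9% of all genes. NDUFV3 (-0.78 for each 10-fold step in dose) and SDHA (-0.43) fell with dose, as did ATP5MF-PTCD1 (-1.815). NDUFS1 rose (0.46), as did UQCRC2 (0.57) and ATP5F1B (0.28). UQCRC2, ATP5F1B and ATP5MF-PTCD1 were named after their values were seen. At an unadjusted p under 0.05, 18 members rose and 3 fell, and without triptolide replicate 2 the number called was 1 and without replicate 1 it was 2, in place of 6. With homoharringtonine 40 of 80 members tested fell with dose and 0 rose, with edgeR, against 22.9% and 21.1% of all genes. At an unadjusted p 47 fell and 0 rose, and with DESeq2 42 fell and 0 rose. The number called was 1 without homoharringtonine replicate 2, 9 without replicate 3 and 17 with library sizes alone, so the trend rests on those wells and on the scaling.

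With pyrazolanthrone, nilotinib, miglitol and MK-2206 few members were called. Pyrazolanthrone at 100 nM had 2 raised, against 3.2% of all genes: NDUFC1, an accessory subunit of complex I (0.49 ± 0.12, adjusted p = 0.022), and UQCRHL (0.91 ± 0.25, adjusted p = 0.033), neither called at 1000 nM or 10000 nM. Nilotinib at 10000 nM had 1 lowered, against 6.4% of all genes: SDHA at 103.7, 113.9 and 121.9 CPM against 115 to 156 CPM in DMSO wells, which overlapped (-0.30 ± 0.09, adjusted p = 0.035). In the other 10 comparisons 0 members were called with edgeR and 0 with DESeq2, while up to 11 rose and up to 20 fell at an unadjusted p under 0.05. Medians in those 10 comparisons ran from -0.11 to 0.13.

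Relative to the mitochondrial mRNAs, nilotinib at 10000 nM lowered 58 of 81 members, with a median of -0.78, against 52.0% of all genes and a median of -0.68. The mitochondrial mRNAs MT-ND2 (0.68), MT-CO1 (0.77), MT-CO2 (0.77) and MT-CO3 (0.48) rose there, and the log2 ratio of summed nuclear to mitochondrial TPM was 1.26 ± 0.15, within the DMSO range. Nilotinib at 100 nM had 1 member raised on this scale, against 7.03% of all genes. The other 3 compounds at 10000 nM had 0 members called on it, but their medians were also negative. They were -0.61 with miglitol, -0.36 with pyrazolanthrone and -0.30 with MK-2206, against -0.51, -0.38 and -0.28 for all genes. At an unadjusted p under 0.05, 44, 4 and 3 members fell. A lower median on this scale was therefore not particular to nilotinib. The ratio itself moved with library composition among DMSO wells: its log2 median was 1.63 in the 6 wells with the lowest GC slope (-0.066 to 0.169) and 2.37 in the 6 with the highest (0.438 to 0.561). The wells of triptolide at 10000 nM had GC slopes of 0.374 to 0.527, within the DMSO range. In the fit relative to the mitochondrial mRNAs, the GC slope as a covariate gave 80, 80 and 81 members lowered with triptolide at the 3 doses. The members' medians were then -1.17, -1.72 and -1.93, against -2.02, -2.83 and -3.06 for all genes. That fit was added after seeing the data. The part of GC slope in the ratios of summed TPM was not tested.

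Genes around the respiratory chain, grouped by role in lists chosen with earlier results known, were read at 10000 nM against the shares of all genes given above, 32.2% raised and 39.7% lowered with triptolide and 36.7% and 37.2% with homoharringtonine. Of 44 assembly factors, which build the complexes without being part of them, 19 rose and 15 fell with triptolide at 10000 nM (median 0.12), with SDHAF1, a factor for the iron-sulfur subunit of complex II, at -5.69 ± 0.29, COA7 at -3.71, TMEM70, a factor for ATP synthase, at -3.06 and NDUFAF4 at -2.87. With homoharringtonine 14 rose and 17 fell, near the shares of all genes, with TTC19 at 2.95, UQCC3 at -2.09, SDHAF4 at -1.87 and NDUFAF5 at 1.76. Of 9 electron carriers and other pathway genes, 7 rose with triptolide (median 0.89), among them CYC1, the cytochrome subunit of complex III, at 1.07, ETFA at 1.14, ETFB at 0.90 and ATP5IF1, the inhibitor of ATP synthase, at 0.95. With homoharringtonine 4 rose and 4 fell, with ETFB at -0.97 and ETFA at 0.68.

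Genes for mitochondrial transcription, RNA stability and DNA replication fell with triptolide while the mitochondrial mRNAs rose in share. Of 16 such genes 13 fell and 1 rose at 10000 nM (median -1.93). The termination factor MTERF1 was at -4.78, the elongation factor TEFM at -3.45 and MTERF3 at -3.34. The falls include 2 genes of mitochondrial DNA replication, the helicase TWNK at -4.26 and the polymerase POLG at -0.59, the latter named for its role. SLIRP, which with LRPPRC keeps mitochondrial mRNAs stable and was named after its value was seen, was the gene that rose (1.08 ± 0.28, adjusted p = 0.0012). With homoharringtonine 10 rose and 2 fell (median 0.76), with SUPV3L1 at 1.95, LRPPRC at 1.70 and MTPAP at 1.52 against POLRMT at -1.37. Of 9 nuclear regulators of respiratory genes 8 fell with triptolide (median -2.62), including the coactivators PPRC1 (-4.73), PPARGC1B (-4.43) and PPARGC1A (-3.62) and the factor NRF1 (-3.84). With homoharringtonine 6 rose and 2 fell, with PPARGC1A at 3.53, PPARGC1B at -3.69, ESRRA at -1.59 and GABPA at 1.02.

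Among like gene groups, 79 of 84 cytosolic ribosomal protein genes rose with triptolide at 10000 nM (median 1.01, against 1.03 for the members). Of 78 mitochondrial ribosomal protein genes 21 rose and 37 fell (median -0.30), beside 32.2% and 39.7% of all genes. With homoharringtonine 4 cytosolic ribosomal protein genes rose and 51 fell (median -0.43), and 19 mitochondrial ones rose and 36 fell (median -0.20). A rise with triptolide was therefore not particular to the nuclear members.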

How the data were processed

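Population RNA-seq of U2OS cells in 24-well plates was analysed; per the labels, libraries were made with TruSeq Stranded mRNA after RNeasy extraction and sequenced on an Illumina HiSeq. The authors ran RSEM on GRCh38, and the submitters' processing notes list HTSeq, RSEM and DESeq2; versions and annotation release are not given in the sources used here. The deposited expected counts are RSEM estimates of reads per gene, not normalized, and were rounded to whole numbers. TPM, also deposited by the authors, corrects for transcript length and sums to the same total in each library. Deposited lengths (bases) were used as properties; the deposited FPKM was not used. Columns not mapped to a sample numbered 0. GENCODE release 44 held 56104 of 60371 identifiers (92.9%).

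The quasi-likelihood test of edgeR 4.0.16 (glmQLFTest after glmQLFit, in R 4.3.3) was run on counts scaled by TMM after filterByExpr with a minimum count of 10, with p-values adjusted by Benjamini-Hochberg over all genes tested, for each compound and dose against 18 DMSO wells, for triptolide against homoharringtonine at each dose, and for linear trends on log10 dose over 9 treated wells. SE is the log2 fold change divided by the square root of F. Normalized CPM use the TMM-scaled library size. Relative to the mitochondrial mRNAs, the library size was the summed counts of those 13 mRNAs. For ratios of summed TPM, values are given with no test. DESeq2 1.42.0 was an alternative. On simulated counts of 13747 genes for 1 comparison, edgeR recovered 200 of 200 changed genes with 7 false calls and DESeq2 200 with 28. The simulation raised as many genes as it lowered, left the rest unchanged and gave every gene the same spread. With triptolide and homoharringtonine far more genes were called, so it does not measure the error rate of those comparisons. Python 3.11.15, numpy 2.4.6, pandas 2.3.3 and scipy 1.17.1 were used.

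Members and lists were chosen with earlier results of these data known. Members named were the SDH genes, complex I core subunits, paralogs, the highest per complex, the 3 largest rises and falls at 10000 nM of each of triptolide and homoharringtonine, and those called for other compounds; genes outside members were named up to 4 per list by size. Some values that the rule names are not reported here. No pair of replicates was a duplicate: over 207 pairs the lowest chi-square per degree of freedom was 1.35. Alternatives were the scaling, DESeq2, other filters, a replicate block, GC slope and fragment length as covariates, and leaving out replicates or shallow libraries.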

Additional observations from a re-analysis of the deposited data

How the results depend on the processing

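Counts of members called kept within 1.5 times, and single members kept direction and side of the threshold, under most alternatives: 214 counts and ratios stayed and 65 moved, and of single members 728 values stayed, 51 lost their call, 15 gained one and 10 turned. Counts for pyrazolanthrone and nilotinib in this paragraph are summed over the 3 doses of each compound. With library sizes alone calls numbered 33 for homoharringtonine at 1000 nM, 2 for nilotinib and 17 for the homoharringtonine trend. On that scale NDUFC1 (-0.038) turned with triptolide. With DESeq2 pyrazolanthrone had 5, nilotinib 2 and the triptolide trend 11. Without a filter pyrazolanthrone and nilotinib had 0 and the triptolide trend 17. With at least 10 counts in every well, which left 30 members at triptolide 100 nM, that dose had 15 calls, 14 relative to the mitochondrial mRNAs and 13 against homoharringtonine, pyrazolanthrone 0 and the triptolide trend 2. With the GC slope homoharringtonine had 45 and 41 calls at 100 nM and 1000 nM (40 and 34 relative to the mitochondrial mRNAs, 37 and 28 of them raised, added after seeing the data), pyrazolanthrone 8 and nilotinib 4. With it SDHC (-0.55), SDHD (-0.018), NDUFS8 (0.25), COX7A2 (-0.30), COX7B (-0.47), NDUFB9 (0.43), ATP5MF (0.17), UQCRFS1 (-0.55) and ATP5MK (-0.66) turned with homoharringtonine at 10000 nM. With fragment length homoharringtonine at 100 nM had 27, pyrazolanthrone 0 and nilotinib 3, and relative to the mitochondrial mRNAs, added after seeing the data, homoharringtonine had 11 and 18 at 1000 nM and 10000 nM. With the mean of log2 mitochondrial counts as scale homoharringtonine had 2, 3 and 14. Without libraries under 10 mil pyrazolanthrone had 4. Calls also past a log2 fold change of 1 numbered 20, 39 and 48 for triptolide, 0, 1 and 4 for homoharringtonine and 0 for pyrazolanthrone and nilotinib. Relative to the mitochondrial mRNAs they numbered 33 for triptolide at 100 nM and 0, 2 and 8 for homoharringtonine. In the trends they numbered 3 and 2, and between the compounds 20 and 40 at 100 nM and 1000 nM. The median of log2(TPM + 1) gave a ratio difference of -2.04 for triptolide at 10000 nM. The cause of these changes was not tested.

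Leaving out 1 replicate gave 49 to 61, 63 to 77 and 75 to 76 calls for triptolide and 13 to 16, 13 to 32 (32 without replicate 1) and 34 to 37 for homoharringtonine. Relative to the mitochondrial mRNAs it gave 30 to 48 (30 without replicate 3), 74 to 80 and 81, and 3 to 4, 3 to 16 (16 without replicate 1) and 10 to 24. The trends gave 1 to 4 and 1 to 39, and the compounds compared directly 39 to 56, 35 to 64 and 74 to 80. The ratio differences ran from -0.78 to -0.53, -1.65 to -1.33 and -1.57 to -1.48 with triptolide, and from 0.04 to 0.20, -0.51 to 0.12 and -0.59 to -0.39 with homoharringtonine.

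Replicate numbers showed no pairing of compound and DMSO wells on average. Deviations of wells with the same number correlated at -0.052 on average over 52 pairs, against 0.024 for other numbers. Single pairs ran from -0.783 to 0.785, so the average cannot show whether some of the wells were paired. With the replicate number as a block, calls summed over the 3 doses numbered 31 for pyrazolanthrone (14 raised, 17 lowered) and 29 for nilotinib (11 and 18). They numbered 53 for miglitol (18 and 35) and 1 for MK-2206. A member can be counted at more than 1 dose in these sums. Relative to the mitochondrial mRNAs, calls with the block numbered 18 and 60 for homoharringtonine at 100 nM and 10000 nM. These fits hold 3 DMSO wells in place of 18.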
